A study of Mus musculus with 6 samples.

Results

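PU.1 binding was examined at the genes of 5 myeloid cytokine receptor chains: Csf1r, Csf2rb, Csf2rb2, Csf3r and Il6ra. The members are all PU.1 ChIP-seq peaks that overlap 4 fixed windows of mouse build mm9 by at least 1 bp. These windows run from 61.22 to 61.32 Mb of chromosome 18 (Csf1r), from 78.09 to 78.20 Mb of chromosome 15 (Csf2rb with Csf2rb2), from 125.65 to 125.76 Mb of chromosome 4 (Csf3r) and from 89.66 to 89.78 Mb of chromosome 3 (Il6ra). They held 150 of the 200323 peaks of the 4 libraries, and 231 of 316138 with the authors' merged list of each condition included. Peaks that touch each other in any of the 4 libraries were merged into regions, of which the windows held 52 of 82810.

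The cells were mouse iBN cells in GM-CSF, which the labels class as a granulocyte-macrophage progenitor and which carried a PU.1-inducible system in both conditions. For the induced group (2 libraries) this system was switched on with doxycycline at 1000 ng per ml over 72 hours, and the uninduced group (2 libraries) had no doxycycline. The promoter of the inducible system, and whether replicates were separate cultures, are not given in the labels, so the spread between libraries may be technical. Peak lists hold no expression values, so the labelled cell type could not be checked against marker genes. The whole lists ran from 31960 peaks (uninduced replicate 1) to 68076 (induced replicate 1), and the read depth behind them is unknown.

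PU.1, a member of the ETS family of transcription factors, binds purine-rich DNA around a GGAA core. It is required for macrophage and neutrophil development. Genes of myeloid growth factor receptors are among its classic targets. Csf1r encodes the receptor tyrosine kinase for CSF1 and IL-34 on monocytes and macrophages. Csf3r encodes the G-CSF receptor of neutrophils and their precursors. Csf2rb encodes the beta chain shared by the receptors for GM-CSF, IL-3 and IL-5, and Csf2rb2 is its neighbouring mouse paralogue, a beta chain for IL-3. Il6ra encodes the chain that binds IL-6 and signals through gp130.

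The promoter letters of these genes show where a PU.1-type sequence stands close to a transcription start. RefSeq promoters (GRCm38.p6) were at hand for 3 of the 5 genes, Csf2rb2, Csf3r and Il6ra. The 250 bases before each start are printed 5′ to 3′ on the strand of the gene, with every GAGGAA or its reverse complement TTCCTC in capitals.
Csf3r: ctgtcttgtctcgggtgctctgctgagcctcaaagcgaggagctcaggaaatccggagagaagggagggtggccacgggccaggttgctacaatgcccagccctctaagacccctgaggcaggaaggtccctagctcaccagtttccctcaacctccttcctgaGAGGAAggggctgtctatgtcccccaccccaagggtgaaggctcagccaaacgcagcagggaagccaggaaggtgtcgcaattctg
Il6ra: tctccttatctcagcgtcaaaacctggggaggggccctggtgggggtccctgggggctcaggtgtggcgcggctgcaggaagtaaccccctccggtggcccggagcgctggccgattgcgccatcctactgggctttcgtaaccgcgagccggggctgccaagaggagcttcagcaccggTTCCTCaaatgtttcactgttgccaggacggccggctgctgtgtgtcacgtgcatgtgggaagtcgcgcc
Csf2rb2: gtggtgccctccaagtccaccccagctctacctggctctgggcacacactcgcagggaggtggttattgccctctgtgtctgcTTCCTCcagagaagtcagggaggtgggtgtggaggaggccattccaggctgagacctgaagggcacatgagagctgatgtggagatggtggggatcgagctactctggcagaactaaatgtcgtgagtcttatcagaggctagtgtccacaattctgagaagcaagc

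Each of these 3 promoters held 1 GAGGAA match before the start. The first base of the match lay 86 bases before the start in Csf3r, 70 in Il6ra and 167 in Csf2rb2, on the strand of the gene in Csf3r and on the other strand in Il6ra and Csf2rb2. Of all 32851 RefSeq promoters in the table, 23.3% held GAGGAA on either strand within 250 bases before the start, so a match is common. Csf2rb2 held a second match that begins 29 bases after the start, ctggcaacTTCCTCaatctgct, where the 8 letters around it read ACTTCCTC, the reverse complement of GAGGAAGT. That longer form, which contains GAGGAA, occurs within the full 300 bases (250 before and 50 after the start) of 3.20% of the promoters. The promoter table belongs to another build than the peaks, so no peak was placed on these letters, and a match is a description of the sequence and not a binding site.

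In that RefSeq table Csf1r stands between Pdgfrb and Hmgxb3, Csf3r between Grik3 and Mrps15, and Il6ra between She and Atp8b2. Csf2rb2 and Csf2rb are adjacent, with Ncf4 before and Tex33 after them. No annotation of mm9 was used, so whether a peak lies in a promoter, an exon or an intron, and in which of these neighbours, was not determined. Regions are therefore named by their mm9 position, counted from 1, and by the distance of their centre from the start of the window.

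More peaks were called in the windows in the induced libraries, and most of the excess lay in the Il6ra window. Induced replicates 1 and 2 held 49 and 46 peaks in the 4 windows, and uninduced replicates 1 and 2 held 19 and 36. The means were 47.5 ± 2.12 and 27.5 ± 12.02 (SD, n = 2 each), a ratio of 1.73, against 1.67 for the whole lists, so the windows together gave nearly the ratio of the lists they came from. Without the Il6ra window the ratio was 1.41, from 32 and 30 induced against 15 and 29 uninduced peaks. Induced peaks covered 15.6% and 13.0% of the windows and uninduced peaks 4.92% and 7.72%, a ratio of 2.27 against 1.94 for the whole lists.

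By window, the peak numbers of the induced libraries were above both uninduced ones at Csf1r and Il6ra and overlapped them at Csf2rb with Csf2rb2 and at Csf3r. The Il6ra window held 17 and 16 peaks in induced replicates 1 and 2 against 4 and 7 in uninduced replicates 1 and 2, a ratio of 3.0. In the same order, the Csf1r window held 6 and 5 against 1 and 4, the Csf2rb window 16 and 14 against 8 and 14, and the Csf3r window 10 and 11 against 6 and 11. Covered length did not overlap between the conditions in any of the 4 windows, with ratios of 4.86 at Il6ra, 3.24 at Csf1r, 1.55 at Csf2rb and 1.23 at Csf3r. The whole lists did not overlap either (79.5 and 62.6 Mb induced, 31.7 and 41.5 Mb uninduced), so the separation alone does not set the windows apart. Against their ratio of 1.94, Il6ra and Csf1r lay above and Csf2rb and Csf3r below. At Csf3r the induced libraries covered 10.2% and 9.69% of the window and the uninduced ones 6.63% and 9.48%, so the ratio of 1.23 rests mainly on uninduced replicate 1.

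The exact two-sided permutation test over libraries, the test used here, cannot give a p below 0.333 with 2 against 2 and so could not pass a threshold of 0.05. It gave 0.333 where the groups did not overlap, and 0.667 and 1.00 for peak number at Csf2rb and Csf3r. Over the 15 comparisons of peak number, covered length and score rank made in this way, the adjusted p (Benjamini-Hochberg) was 0.5 or higher.

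**Figure D1:**
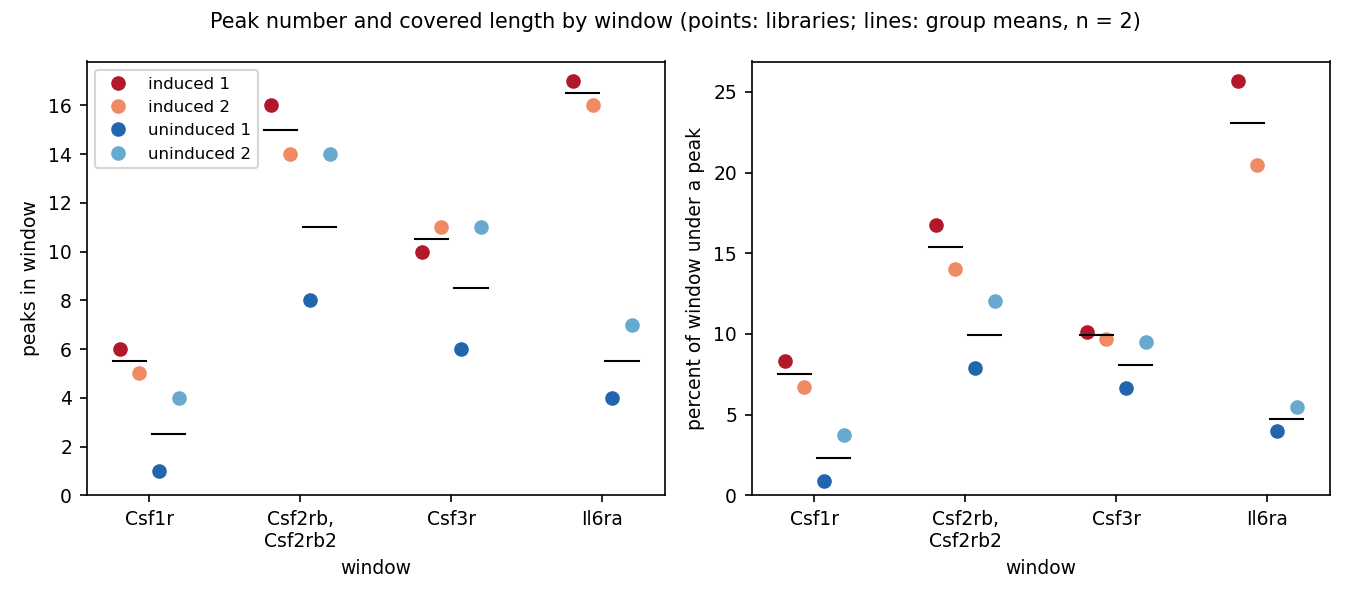
Peaks (left) and percent of the window under a peak (right) in the 4 windows, with 1 point per library and black lines at the group means (n = 2). The Il6ra window shows the widest gap, with 17 and 16 induced against 4 and 7 uninduced peaks, whereas the peak numbers overlap at Csf2rb and Csf3r.

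A region is shared if every library has a peak there, gained if only the induced libraries do, and both of them, lost in the opposite case, and mixed otherwise. The windows held 18 shared regions (34.6%, background 23.4% of all regions), 12 gained regions (23.1%, background 22.2%), no lost region (background 3.80%) and 22 mixed regions (42.3%, background 50.5%). The gained share over all windows was thus near the background. It was made up of unlike windows: 10 of 17 regions were gained at Il6ra (58.8%), 1 of 6 at Csf1r, 1 of 17 at Csf2rb and 0 of 12 at Csf3r. In the 3 windows other than Il6ra, 2 of 35 regions were gained (5.71%) and 15 were shared (42.9%).

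The loci also differed by uninduced library. All 18 regions with a peak in uninduced replicate 1 were shared, against a background of 62.1% for regions of that library. Uninduced replicate 2 had a peak in those 18 and in 16 more, so 18 of its 34 regions were shared (background 46.9%). Of these 16, 13 were also found in each induced library (13 of 52 regions, background 14.6%). No region was seen in uninduced replicate 1 alone of the uninduced pair, so all 34 regions with an uninduced peak had one in uninduced replicate 2. Over the genome this held for 41360 of 48417 such regions. Of the 34 regions with a peak in either uninduced library, 31 had one in both induced libraries (background 67.9%). Without uninduced replicate 1, the shorter list, 31 regions would count as shared instead of 18, and without uninduced replicate 2, 25 would count as gained instead of 12. In the authors' merged lists, all 12 gained regions overlapped an induced peak (background 99.8% of gained regions) and none an uninduced peak (background 3.94%), so neither count sets the members apart.

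**Figure D2:**
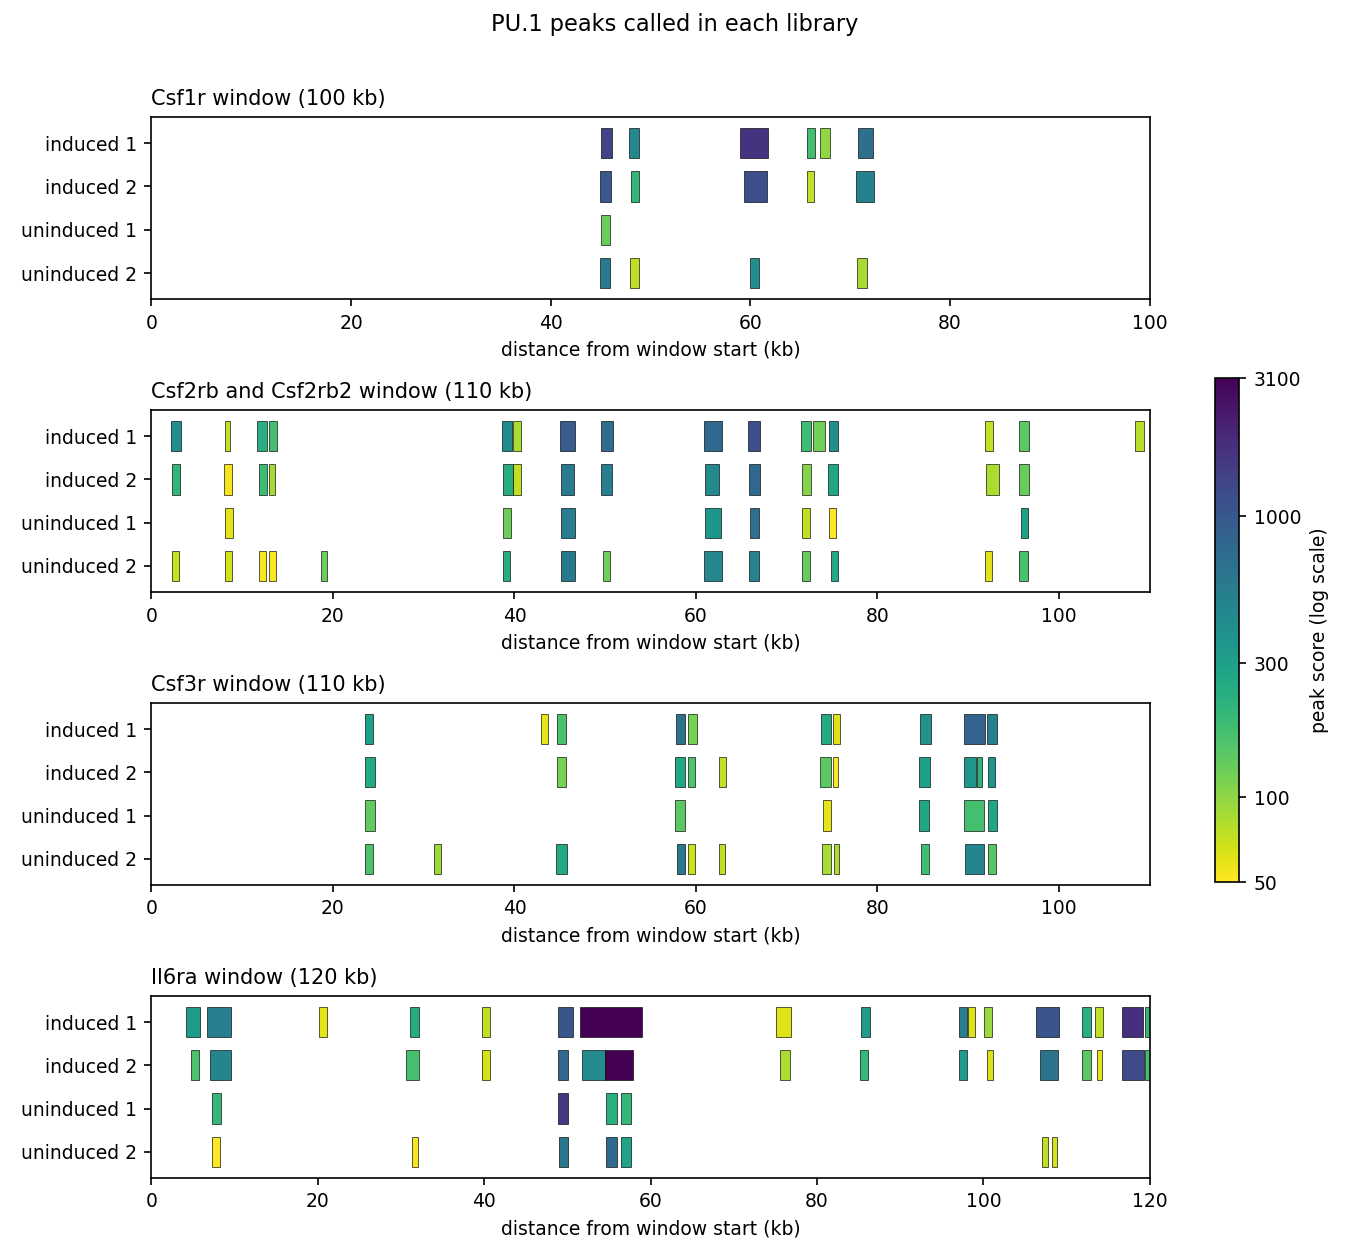
Peaks of each library as boxes along the 4 windows, drawn to scale in kb from the window start and coloured by peak score on a log scale. At Csf2rb and Csf3r the same positions carry peaks in most libraries, at Csf1r uninduced replicate 1 has 1 peak, and the right-hand part of the Il6ra window is filled only in the induced libraries, apart from 2 weak peaks of uninduced replicate 2.

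Scores below are the authors' own, 1 per peak. Their levels differ between lists (medians over the whole lists of 164 and 140 for induced replicates 1 and 2, and 105 and 115 for uninduced replicates 1 and 2), so scores set side by side show no change by themselves. Comparable across libraries is the rank of a shared region among the same 19391 shared regions in each library, given as a percentile where 100 is the highest score.

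At Csf1r, the receptor of the macrophage growth factor CSF1, PU.1 peaks of the 4 libraries were all centred between 45.5 and 71.5 kb from the start of the window. The merged lists of both conditions hold a further weak peak in the last 5 kb, with scores of 58.8 (induced) and 57.33 (uninduced), which no single library has. The sole shared region, at chromosome 18, 61264921 to 61266100, scored 1357.01 and 1001.31 in induced replicates 1 and 2, and 127.43 and 577.35 in uninduced replicates 1 and 2. Its percentiles were 84.1 and 87.4 induced, and 38.4 and 82.4 uninduced. Both induced ranks were above both uninduced ranks, by a wide margin over uninduced replicate 1 and a narrow one over uninduced replicate 2. Csf1r is known to be controlled by a myeloid promoter and an intronic enhancer, both with PU.1 sites, but which peak corresponds to which element was not determined.

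The strongest induced peak of the Csf1r window was not the shared one. It lay at chromosome 18, 61278906 to 61281721, and scored 1684.46 and 1149.53 in the induced libraries and 416.87 in uninduced replicate 2. Only 3.41% and 3.76% of the peaks of the induced lists scored higher. Uninduced replicate 1 had no peak there, nor at 61267788 to 61268844 (455.91 and 200.56 induced, 75.98 in uninduced replicate 2) or 61290586 to 61292368 (702.08 and 515.43 induced, 86.49 in uninduced replicate 2). These 3 regions are therefore mixed, and they account for the difference in peak number between the uninduced replicates at this gene. The gained region, 61285621 to 61286435, was weaker, with scores of 175.45 and 73.68, and a last region 67.5 kb from the window start was called in induced replicate 1 alone, with a score of 98.51. Without uninduced replicate 1 the window held 4 shared regions instead of 1, and without uninduced replicate 2 it held 4 gained regions instead of 1. Its ratio of peaks, 2.20 with all libraries, was then 1.38 and 5.50, and its ratio of covered length, 3.24 with all libraries, was 2.02 and 8.23.

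At Csf2rb and Csf2rb2, the beta chains of the GM-CSF and IL-3 receptors, 8 of 17 regions were shared, and PU.1 peaks were present along the locus in the uninduced libraries. Of the 23992 tiles of 110 kb that divide the genome, 0.454% held 8 or more shared regions, and the median tile held 0. The window was also dense in regions of any class: 1.25% of these tiles held 17 or more. The cells were kept in GM-CSF in both conditions, so whether it bears on these peaks cannot be told from these libraries and was not tested. The beta chains are close paralogues, and whether reads were split or lost between copies was not tested.

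The 4 shared regions of this window with the highest scores in induced replicate 1 lay at chromosome 15, 78128677 to 78129786, 78134992 to 78136709, 78150868 to 78152913 and 78155738 to 78157069, centred 39.2, 45.9, 61.9 and 66.4 kb from the window start. The last of these had the highest induced scores of the window, 1154.63 and 780.05, and uninduced scores of 710.61 and 494.21. Its percentiles among shared regions were 79.5 and 80.5 induced and 87.9 and 77.7 uninduced, so the conditions overlapped. The region at 45.9 kb scored 968.42 and 575.72 induced, and 545.41 and 585.1 uninduced, and that at 61.9 kb scored 781.62 and 437.42, and 353.25 and 457.41. Both stood at lower ranks in both induced libraries, with percentiles of 73.7 and 71.1 against 82.9 and 82.8 for the former and of 66.4 and 61.3 against 73.0 and 75.2 for the latter. The region at 39.2 kb scored 427.9 and 238.37 induced, and 125.47 and 239.14 uninduced, and its ranks overlapped.

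The other shared regions of this locus scored lower in induced replicate 1. The region at 78161604 to 78162670 scored 182.61 and 107.5 induced, and 72.58 and 130.14 uninduced. The region at 78164570 to 78165620 scored 398.23 and 265.54 induced, and 50.98 and 258.25 uninduced, at the threshold of the list in uninduced replicate 1. Its percentiles were 42.1 and 43.6 induced against 0.789 and 52.9 uninduced, so its ranks overlapped. It was the only 1 of the 8 whose mean percentile was higher in the induced libraries. Among the shared regions of the 4 windows, that at 78185606 to 78186670 had the lowest rank shift. It scored 140.65 and 129.46 induced against 291.29 and 165.9 uninduced, and its percentiles were 12.6 and 20.5 against 67.5 and 34.6. The shared region 8.5 kb from the window start, which the naming rule leaves out and which is given here after its values were seen, ranked low among shared regions in every library, with percentiles of 0.846 to 6.51 and scores of 53.56 to 74.72.

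In 4 of the 8 shared regions both induced ranks were below both uninduced ranks (background 30.8%), and in none were they above (background 30.6%). The 4 include the weak region at 8.5 kb, with percentiles of 2.79 and 0.846 against 6.51 and 5.16 and with low scores in every library. The median rank shift, the mean induced minus the mean uninduced percentile, was -3.56 points over the 8 regions, against 0.219 over all shared regions of the genome. Its size depended on single libraries: it was -10.1 without uninduced replicate 1, -6.33 without uninduced replicate 2, -4.44 without induced replicate 1 and -2.15 without induced replicate 2. The median percentile of the 8 was 43.4 and 41.7 induced, and 52.6 and 51.2 uninduced, which did not overlap (exact permutation p = 0.333, the smallest possible).

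Among the mixed regions of this window, 5 were missed in uninduced replicate 1 alone. The strongest, at 78139508 to 78140896, scored 727.97 and 539.3 induced and 121.6 in uninduced replicate 2. It was followed by 78092167 to 78093308 (415.94 and 209.53, and 71.16), 78101624 to 78102724 (231.69 and 181.98, and 52.18), 78102906 to 78103821 (172.25 and 87.31, and 50.94) and 78181818 to 78183434 (73.43 and 84.98, and 60.87). Apart from the first, their scores in uninduced replicate 2 lay between 50.94 and 71.16, near the list minimum of 50. The single gained region, 40.3 kb from the window start and also outside the naming rule, scored 84.49 and 73.01. It lay within 17 bp of the shared region at 39.2 kb, and the authors' merged induced list holds both as 1 peak. Of the 3 regions called in 1 library, 2 were in induced replicate 1 and 1, with a score of 125.41, in uninduced replicate 2. Without uninduced replicate 1 the window held 13 shared regions instead of 8, and without uninduced replicate 2 it held 6 gained regions instead of 1.

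At Csf3r, the receptor of the neutrophil growth factor G-CSF, 6 of 12 regions were shared and none was gained. Of the 110-kb tiles 2.20% held 6 or more shared regions, and 6.07% held 12 or more regions of any class. Uninduced replicate 2 had 11 peaks here, as many as induced replicate 2, and without it 3 regions would count as gained. With lists of equal length (the 31960 best-scoring peaks of each library) the ratio of peaks was 0.875 and that of covered length 0.936. Without uninduced replicate 1 the ratio of peaks was 0.955 and that of covered length 1.05, and with scores of at least 100 the ratios were 1.55 and 1.42, so the direction of the difference at Csf3r changed with the setting.

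The shared regions of Csf3r lay at chromosome 4. That at 125739484 to 125741856 scored 831.48 and 342.68 induced, and 172.32 and 475.87 uninduced, and that at 125707645 to 125708801 scored 693.82 and 266.95, and 142.33 and 596.23. In both, the scores of the conditions overlapped: induced replicate 1 and uninduced replicate 2 were high, and the other 2 libraries were low. The region at 125742054 to 125743200 scored 517.77 and 366.38 induced, and 271.74 and 148.94 uninduced, and that at 125734574 to 125735876 scored 387.67 and 292.35, and 266.47 and 176.27. Their ranks overlapped, with percentiles of 51.6 and 54.9 against 65.5 and 30.3, and of 41.1 and 46.9 against 64.9 and 37.0. The region at 125673538 to 125674625 scored 298.8 and 257.87 induced, and 137.46 and 160.18 uninduced. Its ranks overlapped as well, with percentiles of 32.7 and 42.5 against 41.3 and 33.2.

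The remaining shared region of Csf3r was the single one there with both induced ranks above both uninduced ranks. It lay at 125723646 to 125724925 and scored 254 and 140.66 induced, and 59.37 and 86.41 uninduced, with percentiles of 27.8 and 23.0 against 6.72 and 11.5. Over the 6 shared regions the rank shift had a median of -1.31 points and was above 0 in 3, and its sign changed under several alternatives. The mixed regions missed in uninduced replicate 1 alone were 125694607 to 125695813 (163.93 and 115.63, and 254.9), 125709117 to 125710067 (116.98 and 158.62, and 68.87) and 125725059 to 125725915 (61.76 and 50.42, and 84.21). At the first and the last of these the score of uninduced replicate 2 was above both induced scores. The region at 125712497 to 125713301 was called in induced replicate 2 (73.75) and uninduced replicate 2 (72.57) alone.

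At Il6ra, the IL-6 binding chain, PU.1 peaks were called along most of the window in the induced libraries and at few places in the uninduced ones. Of its 17 regions, 10 were gained, 3 shared and 4 mixed. Counted by their centres, 9 gained regions lay in the window. Of the 21996 tiles of 120 kb that divide the genome, 20 tiles (0.0909%) held 9 or more gained regions, and the median tile held 0. By the same count the window was also dense in regions of any class, with 16, and 2.43% of these tiles held as many or more. The window lies in the part of chromosome 3 between 85 and 120 Mb, where 35.6% of 1596 regions were gained, and 35.3% without the window. Gained regions were thus more frequent in that whole segment than over the genome, and more frequent again in the Il6ra window. The bounds of the segment are those of another part chosen for study in this series. They may rest on these same data, so its share is a description and not an independent finding.

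**Figure D3:**
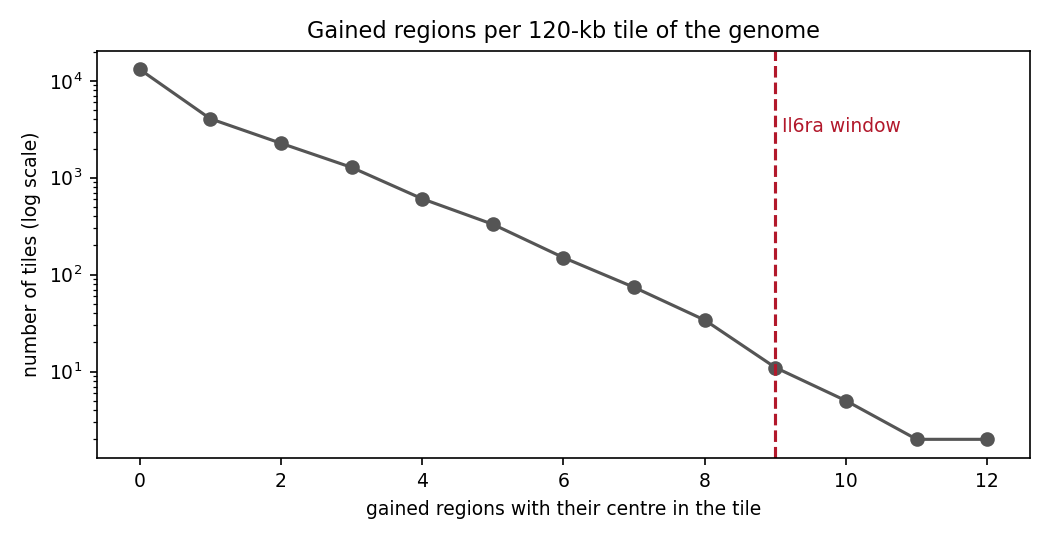
Number of 120-kb tiles of the genome (log scale) by the number of gained regions centred in them, with the Il6ra window at 9 marked by the dashed line. The curve falls steadily from 13164 tiles with none, and 20 tiles reach 9 or more.

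The largest induced signal of the window, and of all 4 windows, was a broad shared region at chromosome 3, 89711544 to 89718995. In induced replicate 1 it was a single peak of 7452 bp with a score of 3100, and 16 of the 68076 peaks of that list were as wide or wider. Induced replicate 2 had 2 peaks there, 1 of 2791 bp with a score of 437.93 and 1 of 3316 bp with a score of 3100. Each uninduced library had 2 narrower peaks in the right-hand part of it, with scores of 226.85 and 199.33 in replicate 1 and 753.62 and 283.97 in replicate 2. The left-hand part was covered in the induced libraries only. Exactly 3100 was the score of 367 peaks of induced replicate 1 and 95 of induced replicate 2, so the order among them is not resolved. The percentiles of the region were 98.9 and 99.7 induced against 60.0 and 88.9 uninduced.

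The neighbouring shared region of the Il6ra window differed in the opposite direction. At 89708815 to 89710710 the induced scores were 1055.4 and 775.72 and the uninduced ones 1623.91 and 589.31, with percentiles of 76.5 and 80.3 against 96.9 and 83.0. In uninduced replicate 1 it was among the strongest 1.90% of all peaks and the highest score of the 4 windows. The remaining shared region, 89666650 to 89669584, scored 544.5 and 471.06 induced, and 197.73 and 51.55 uninduced. Its percentiles were 53.5 and 64.0 against 55.5 and 0.459, so uninduced replicate 1 stood between the induced libraries. The 3 shared regions of Il6ra thus gave 1 higher, 1 lower and 1 overlapping rank in the induced libraries. Over the 313 shared regions between 85 and 120 Mb the median shift was 15.3 points, against 0.219 over the genome. Their median percentiles were 62.5 and 62.5 induced against 53.4 and 37.3 uninduced, so uninduced replicate 2 stood furthest from the induced libraries.

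The strongest gained region of the windows was at 89776684 to 89779258, near the right-hand end of the Il6ra window, with scores of 1755.84 and 1230.07 and with 3.08% and 3.15% of the induced lists scoring higher. A further gained region adjoined it at 89779395 to 89781399, across the edge of the window, with scores of 205.81 and 171.33. The other gained regions that the naming rule covers were 89757055 to 89758084 (526.35 and 328.87), 89745138 to 89746314 (329.65 and 198.23), 89664197 to 89665865 (325.64 and 161.04), 89771857 to 89772983 (229.64 and 141.36) and 89760135 to 89761127 (93.12 and 63.67). In 9 of the 10 the score of induced replicate 1 was the higher. Gained regions over the genome also scored higher in that library, with medians of 138 in induced replicate 1 and 94.7 in induced replicate 2. The 3 weakest of the 10 by the higher induced score, centred 40.2, 76.0 and 113.9 kb from the window start, scored between 59.34 and 83.2. The distance of these regions to the start of Il6ra, and to the starts of its neighbours, was not determined.

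Of the mixed regions of the Il6ra window, that at 89766322 to 89769073 was the strongest, with scores of 1037.4 and 648.49 in the induced libraries. Uninduced replicate 2 had 2 weak peaks inside it, of 73.01 and 64.93, and the authors' merged uninduced list had none. The region at 89690587 to 89692218 scored 247.27 and 167.56 induced and 51.68 in uninduced replicate 2. The other 2 mixed regions were called in induced replicate 1 alone, with scores of 59.11 and 62.44. With 10 kb trimmed from each end, the window held 5 gained regions instead of 10, and without uninduced replicate 1 it held 5 shared regions instead of 3.

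Taking the 18 shared regions of the 4 windows together, the score ranks of the conditions did not separate. The median percentile was 52.6 and 49.7 induced, and 52.9 and 51.2 uninduced (exact permutation p = 0.667). Both induced ranks were above both uninduced ranks in 3 of 18 regions (background 30.6%) and below them in 5 of 18 (background 30.8%). The median shift over the 18 was -2.87 points, without induced replicate 2 it was 0.451, and with lists of equal length it was -8.79. The members' scores were also near those of shared regions elsewhere, with medians of 531 and 318 in the induced libraries (494 and 318 over the genome) and 185 and 249 in the uninduced ones (172 and 242).

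**Figure D4:**
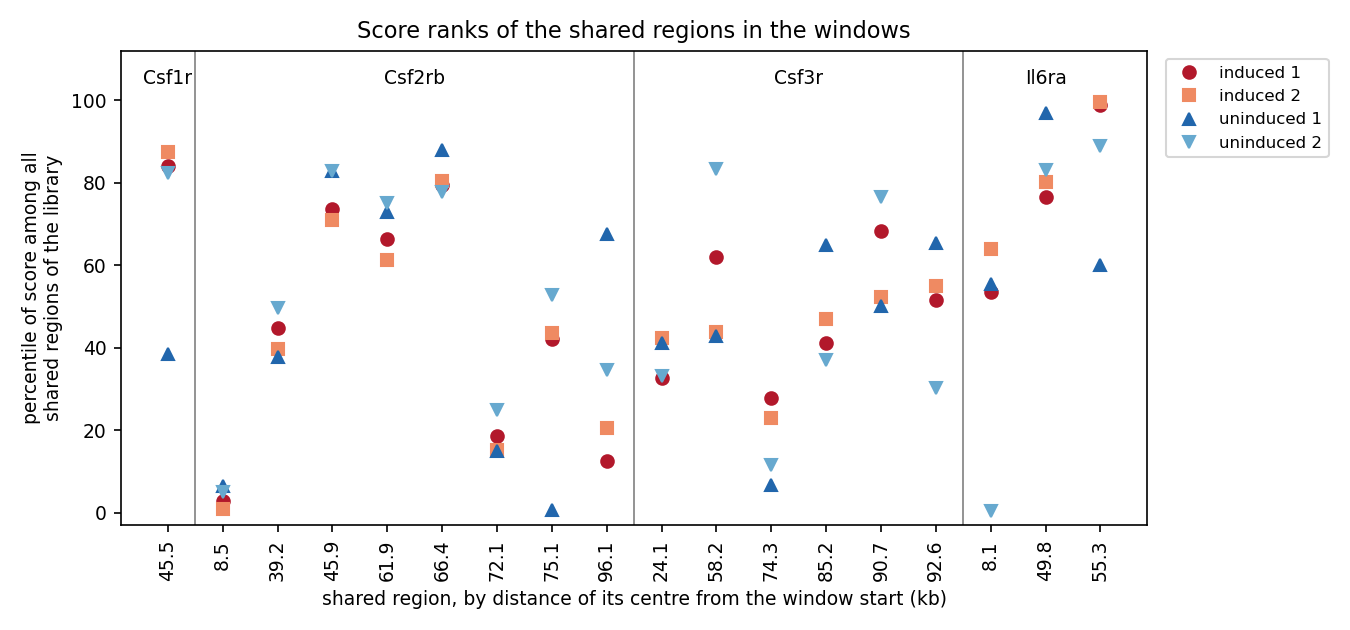
Percentile of the score among all shared regions of a library (vertical axis) for the 18 shared regions of the windows, placed by the distance of their centre from the window start in kb, with 1 symbol per library. Induced symbols lie above both uninduced ones at Csf1r 45.5, Csf3r 74.3 and Il6ra 55.3 kb, and below both at 5 regions.

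In the authors' merged lists too, the Il6ra window had the largest share of induced peaks without an uninduced counterpart. The merged induced list held 17 peaks in the Il6ra window, 13 of them without a peak in the merged uninduced list (background 53.4% of all merged induced peaks). These numbers were 7 and 3 at Csf1r, 18 and 8 at Csf2rb with Csf2rb2, and 12 and 4 at Csf3r. Of the 27 peaks of the merged uninduced list in the windows, 1 had no peak in the merged induced list (background 22.4%), at the Csf2rb window. Over the 4 windows, 7 of 54 merged induced peaks and 1 of 27 merged uninduced peaks had no counterpart in the single libraries of their condition. The same shares over the whole merged lists were not computed, so it is not known whether these counts are unusual.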

How the data were processed

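PU.1 ChIP-seq was analysed in 4 libraries of iBN cells, grouped by their titles. Input libraries (2) were not analysed here. Per the submitters' processing notes, Trim Galore, Bowtie and MACS 1.4.1 and build mm9 were used. The sources used here do not give the control of peak calling, the read filters or the way replicates were merged. The authors deposited 1 score per peak, with a minimum of 50 and no stated scale. Depth is unknown, and an absent peak means only that none was called.

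Peaks were merged over the 4 libraries into regions (1 bp in common) across the whole genome, and those overlapping the windows were kept. Scripts ran on pandas 2.3.3, SciPy 1.17.1 and NumPy 2.4.6 under Python 3.11.15, with figures from matplotlib 3.10.9. Library values were compared with exact permutation tests. Functions were tested on simulated lists. Named were all regions that were shared, gained, lost or seen in 2 or more libraries, up to 12 per window by the higher induced score. The members and lists were chosen with earlier results of these data known. Other genes of the pathway were not located, since no mm9 annotation was used here. The alternatives tried were other overlap and score rules, equal list lengths, narrower windows, the merged lists, a replicate block and leaving out each library.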

Additional observations from a re-analysis of the deposited data

How the results depend on the processing

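Over the 4 windows, the ratios of peak number and covered length stayed above 1 under every alternative run (1.32 to 2.50 and 1.86 to 2.91), although the exact permutation test over 2 against 2 libraries cannot give a p below 0.333. The whole induced lists as deposited were longer too, so with them a ratio above 1 does not set the windows apart. With all libraries the ratios of the whole lists were 1.67 and 1.94, which lie within these ranges. With lists of equal length the peak ratio of the whole lists is 1 by construction. The windows then gave 1.34 for peaks and 1.93 for covered length. The whole-list ratio of covered length for that setting, and the whole-list ratios for the other alternatives, were not computed. Leaving out 1 library at a time gave 18 to 31 shared, 12 to 25 gained and 0 to 2 lost regions, and a median rank shift of -3.65 to 0.451 points; with lists of equal length the shift was -8.79. Gained regions numbered 7 with 10 kb trimmed from each window and 28 in the merged lists. Lost regions numbered 3 where joined peaks had to share 50% of both intervals, all in the Il6ra window, where that rule separates narrow uninduced from broad induced peaks, and 1 in the merged lists. With lists of equal length the windows differed. The ratio of peaks was 2.88 at Il6ra, 1.60 at Csf1r, 1.00 at Csf2rb and 0.875 at Csf3r. That of covered length was 4.94, 2.70, 1.17 and 0.936 in the same order. At Csf3r, leaving out 1 library gave peak ratios of 0.955 to 1.75 and rank shifts of -5.89 to 3.27 points, and the shift was 0.546 with the 50% overlap, 1.21 with scores of at least 100 and 7.19 with the replicate block. At Csf2rb the shift of -3.56 points was -9.83 with lists of equal length, -9.29 with scores of at least 100 and -7.50 with the replicate block. At Il6ra the shift of 24.9 points became -9.95 with the 50% overlap, where 1 shared region is left, and was 3.15 without uninduced replicate 2, 4.45 with the replicate block, 6.68 with trimmed windows, 7.13 with lists of equal length and 11.6 with scores of at least 100. The replicate block gave ratios of 1.82 for peaks and 2.31 for covered length and a rank shift of -3.15 points over the 4 windows. The score ranks of same-numbered libraries did not deviate together (r = -0.0254 over 19391 shared regions), so these ranks gave no sign of pairing. With 2 libraries per group this is a single correlation and cannot exclude that same-numbered libraries were paired. Unknown depth limits every statement on absent peaks.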
